A study of Rattus norvegicus with 3 samples.

Results

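Injured rat spinal cord that carried a scaffold releasing hepatocyte growth factor (HGF) was compared with injured cord that received no treatment. Every nucleus of both single-nucleus RNA libraries was used, 906 from the HGF scaffold and 2252 untreated, together 3158 of the 5326 nuclei in the series. The remaining nuclei came from a cord with a scaffold alone, which took part in the joint clustering and in no ratio. All animals were wild-type Sprague Dawley rats 17 weeks of age, and the epicenter of the lesion was sampled 49 days after injury, by which time the implant had been in place for 7 days. There was 1 library on each side, and the labels used here do not say how many animals gave it, so differences between animals and between treatments cannot be told apart. The untreated cord had no implant, so released HGF, the scaffold and its implantation cannot be told apart in any ratio. No test was possible. Each ratio is HGF scaffold over untreated, with an exact 95% interval that covers counting error only.

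HGF is secreted as an inactive precursor, is cut by serine proteases and binds a single receptor, the tyrosine kinase MET, which signals through adaptors such as GRB2 and GAB1 to the MAP kinase and PI3 kinase pathways. In nervous tissue it is known as a survival and growth factor for neurons and glia, and in many organs as a factor that limits fibrosis. A chronic spinal cord lesion holds resident microglia, macrophages from blood, fibroblasts that lay down collagen, astrocytes at the border, and oligodendrocyte precursors that can form new myelin. The values below count rat transcripts in nuclei and do not measure the released protein.

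The untreated library held 5953189 unique molecular identifiers (UMIs) and the HGF library 1450757, with medians of 1407.5 and 1047 UMIs per nucleus. No barcode was shared. Nuclei with at least 3 markers from each of 5 or more classes numbered 245 and 36, and the doublet caller Scrublet marked 0 and 1 nuclei, too few for it to have worked. Cord tissue was recognised in both libraries by oligodendrocyte, precursor, astrocyte and neuron classes. Within the myeloid class described below, skeletal muscle markers were found in 6 untreated nuclei and 1 HGF nucleus, counted at 3 or more of 8 markers. Nuclei of other classes were not counted in this way. UMIs were summed per library, or per class of nuclei, and divided by the total and given as CPM, the counts in each 1000000. Genes whose UMIs in the pair of libraries added up to 20 or more are called measured, and a 2-fold difference is called higher or lower. A gene can reach this minimum on the UMIs of 1 library alone, so counts and medians of gene lists are not free of that selection. Over all nuclei, fewer nuclei of a type and less RNA per nucleus cannot be told apart.

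In percentage points the largest difference in makeup was in myeloid-like nuclei, named from microglia and macrophage markers such as Csf1r, Itgam and Cx3cr1. They made up 11.6% of untreated nuclei (262, interval 10.3 to 13.0) and 38.7% of HGF nuclei (351, interval 35.6 to 42.0), a share ratio of 3.33 (2.83 to 3.92). When each nucleus was instead classed by its own marker score, with no clusters, the ratio was 4.82. Fibroblast-like nuclei went the other way, with 35.8% (806 nuclei) and 22.1% (200), a ratio of 0.617 (0.526 to 0.721). Without the fibroblast-like cluster led by Col1a1, Lum and Lyz2, which also carried myeloid transcripts, the shares were 32.0% and 13.9%, a ratio of 0.435.

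Glia, vessels and neurons followed. Oligodendrocyte-like nuclei made up 11.9% and 13.0% of the libraries (1.09, 0.874 to 1.36), and oligodendrocyte precursor-like nuclei 5.60% and 4.42% (0.789, 0.539 to 1.13). Both intervals include 1, as did that of endothelial-like nuclei at 7.77% and 5.85% (0.753, 0.543 to 1.03). Neuron-like nuclei made up 6.08% and 3.31% (0.544, 0.354 to 0.813). Astrocyte-like nuclei were 157 and 21, or 6.97% and 2.32% (0.332, 0.200 to 0.526), and Schwann cell-like nuclei, the myelinating cells of peripheral nerve, 91 and 9, or 4.04% and 0.993% (0.246, 0.109 to 0.488). Neutrophil-like nuclei had S100a8, S100a9, Lcn2 and Mmp9 among their leading genes. They were 0 of 2252, with an exact interval up to 0.164%, and 9 of 906, or 0.993%. A further 34 lay in the scaffold-only library. Nuclei without a class name made up 10.2% and 8.28%. Every share is of nuclei above a floor near 500 UMIs, and more nuclei of 1 type cannot be told apart from fewer of all others.

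**Figure D1:**
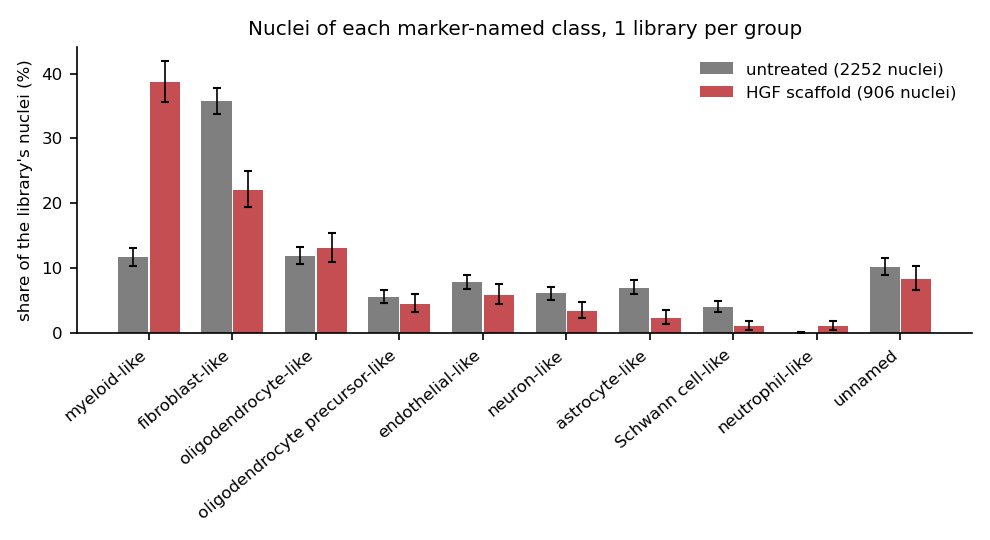
Bars give the share of each library's nuclei (%) in each marker-named class for the untreated and the HGF scaffold library, with exact binomial 95% intervals as error bars. The myeloid bars stand at 11.6% and 38.7% and the fibroblast bars at 35.8% and 22.1%.

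Within the myeloid class, different clusters held most nuclei of each library. A cluster led by Itgam (an integrin of macrophages and neutrophils), Dapk1, Arg1 and the kinase gene Lyn held 14 untreated and 319 HGF nuclei. A cluster with Blnk, Slc2a5 (a fructose transporter of microglia) and Mertk among its leading genes held 248 and 32. The scaffold-only library had 401 nuclei in the former cluster and 137 in the latter. The latter cluster was also led by the muscle genes Trdn, Alpk3 and Xirp2. The 6 untreated muscle-marker nuclei lay in it and held 406 of the class's 408 Trdn UMIs, 1 of its 264 Blnk UMIs and 0 of its 120 Csf1r UMIs. A myeloid ratio therefore compares mostly 1 cluster with another, and cell type and library cannot be told apart in it. Values within a single cluster are given beside the class values of some genes.

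Over all nuclei, 11474 genes were measured, of which 9.26% were 2-fold higher and 11.6% were 2-fold lower with the HGF scaffold. The genes farthest above 1 were inflammatory. Cxcl2, a chemokine that draws neutrophils, had 4 UMIs (0.672 CPM) in the untreated library and 254 (175 CPM) in the HGF library, a ratio of 261 (101 to 964). Irg1, the enzyme that makes itaconate in activated macrophages, had 4 and 193 UMIs (0.672 and 133 CPM), a ratio of 198 (76.1 to 734). In both, the untreated UMIs lay in 4 nuclei, while the HGF UMIs lay in 52 nuclei for Cxcl2 and 105 for Irg1. The promoters of Cxcl2, Irg1 and Nfkbia (the NF-kappaB inhibitor and target gene, one of the genes farthest above 1 in myeloid-like nuclei) hold the letters GGNNTTTCC of an NF-kappaB site on either strand, shown in capitals. They are RefSeq sequences of build GRCr8, from 250 bases before to 50 after the gene start, 5′ to 3′ on the gene's strand.
Cxcl2, chr14:17467206-17467505, minus strand: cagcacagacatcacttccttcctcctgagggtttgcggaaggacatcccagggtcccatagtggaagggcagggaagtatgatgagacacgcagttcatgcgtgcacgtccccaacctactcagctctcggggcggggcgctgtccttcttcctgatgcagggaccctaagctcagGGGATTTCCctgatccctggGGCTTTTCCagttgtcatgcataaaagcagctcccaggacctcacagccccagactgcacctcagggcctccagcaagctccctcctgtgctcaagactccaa
Irg1, chr15:86286289-86286588, plus strand: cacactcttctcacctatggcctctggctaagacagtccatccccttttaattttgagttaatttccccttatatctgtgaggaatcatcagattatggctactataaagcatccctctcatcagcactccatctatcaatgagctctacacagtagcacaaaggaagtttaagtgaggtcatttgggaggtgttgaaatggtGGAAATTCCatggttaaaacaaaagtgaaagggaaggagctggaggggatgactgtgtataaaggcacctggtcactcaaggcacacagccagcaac
Nfkbia, chr6:78597023-78597322, minus strand: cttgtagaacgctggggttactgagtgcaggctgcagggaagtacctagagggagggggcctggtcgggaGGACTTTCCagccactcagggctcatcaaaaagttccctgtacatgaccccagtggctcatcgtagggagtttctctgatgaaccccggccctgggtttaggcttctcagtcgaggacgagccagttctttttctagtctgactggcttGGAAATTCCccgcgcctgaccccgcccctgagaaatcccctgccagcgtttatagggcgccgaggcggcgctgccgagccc
Cxcl2 and Nfkbia each hold 2 matches and Irg1 holds 1. Of the 60 named genes that were 2-fold higher, 49 had a promoter in the table and 7 of them held the letters, against 3 of 32 among the named genes that were 2-fold lower and 6.05% of all 33469 promoters of this length. The hypoxia response letters ACGTG were in 17 of the 49 and 6 of the 32, beside 19.3% of all promoters. The AP-1 letters TGANTCA were in 5 and 4, beside 7.33%, and the ETS letters AGGAAGT in 10 and 2, beside 8.41%. Overlap between motifs was not removed, and a match is a description of letters only.

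Other genes far above 1 had related roles. Siglec10, an inhibitory lectin receptor of leukocytes, had 2 and 61 UMIs (0.336 and 42.0 CPM), a ratio of 125 with a wide interval of 33.2 to 1057. Nos2, the inducible nitric oxide synthase, had 5 and 90 UMIs (73.9, 30.5 to 233), and the chemokine Cxcl3 had 4 and 79 (81.0, 30.4 to 305). Slpi, a secreted protease inhibitor, stood at 2.18 and 97.2 CPM (44.5, 25.2 to 85.7). The chemokine Ccl3 stood at 3.86 and 141 CPM (36.4, 23.6 to 58.7), and the neutrophil protein gene S100a9 at 5.71 and 189 CPM (33.1, 23.1 to 48.7). A single HGF nucleus held 31 of 141 Slpi UMIs, and a single HGF nucleus held 61 of 274 S100a9 UMIs. The genes farthest above 1 were not confined to 1 class. Of the 254 HGF-library Cxcl2 UMIs, 85 lay in the 9 neutrophil-like nuclei, 107 in unnamed nuclei (90 of them in the cluster led by Slc26a7 and Foxp2), 29 in fibroblast-like and 14 in myeloid-like nuclei. Irg1 instead lay with 96 of 193 UMIs in myeloid-like nuclei. With each cluster weighted as in the untreated library, which leaves out the neutrophil-like cluster, the ratios were 222 for Cxcl2, 121 for Irg1 and 39.8 for S100a9. That weighting keeps the cluster led by Slc26a7 and Foxp2, where 11 neutrophil markers summed to 2.95 and 1233 CPM (418, 73.5 to 16658). Of the 11, 10 were at 0 in its untreated nuclei. These ratios are therefore not free of neutrophil transcripts.

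The lowest genes were of cartilage, muscle and neurons. Col2a1, the collagen of cartilage, had 259 UMIs (43.5 CPM) and 2 UMIs (1.38 CPM), a ratio of 0.0317 (0.00382 to 0.116), but 118 of the 259 lay in 1 untreated nucleus. Comp, a cartilage and tendon matrix gene, stood at 41.7 and 2.76 CPM (0.0662, 0.0179 to 0.172), with 59 of 248 UMIs in 1 nucleus. For Xirp2, a muscle protein gene, 88 of 164 untreated UMIs lay in 1 nucleus, against 2 UMIs in the HGF library. Neuronal genes were spread over more nuclei. The potassium channel partner Kcnip4 stood at 1258 and 214 CPM (0.170, 0.151 to 0.190), the channel Kcnj3 at 112 and 14.5 CPM (0.129, 0.0792 to 0.199), the G-protein regulator Rgs7 at 357 and 59.3 CPM (0.166) and the glutamate receptor Grm7 at 820 and 152 CPM (0.185). Cntnap4, a synaptic adhesion gene, had 348 and 7 UMIs (0.0825, 0.0329 to 0.172). At the untreated cluster makeup the ratios of Kcnip4, Kcnj3, Rgs7 and Grm7 were 0.497, 0.355, 0.487 and 0.482, nearer to 1 than over the nuclei as sampled, while Cntnap4 stayed at 0.0961.

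**Figure D2:**
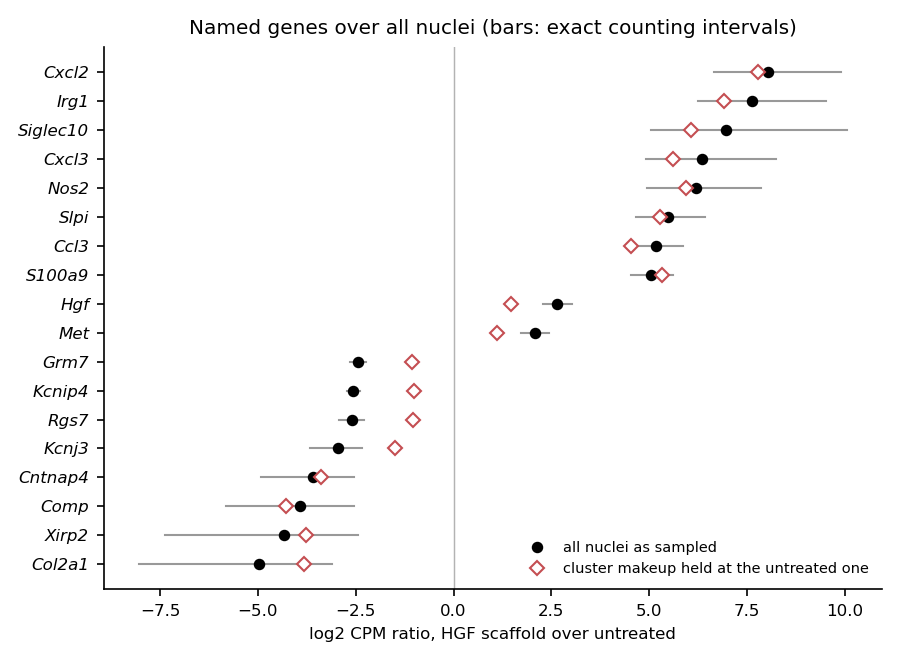
Points give the log2 CPM ratio of named genes over all nuclei, HGF scaffold over untreated, with exact counting intervals as bars. Open diamonds give the same ratio with each cluster weighted as in the untreated library, which moves Kcnip4 from a ratio of 0.170 to 0.497 and Cxcl2 from 261 to 222.

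Hgf itself, the ligand, had 107 UMIs (18.0 CPM) in the untreated and 164 (113 CPM) in the HGF library, a ratio of 6.29 (4.90 to 8.10). At the untreated makeup the ratio was 2.77. Myeloid-like nuclei held 17.8% of the untreated Hgf UMIs and 61.6% of those in the HGF library, and fibroblast-like nuclei 38.3% and 12.8%. Within myeloid-like nuclei Hgf stood at 79.4 and 228 CPM (2.87, 1.74 to 4.96). Inside the Itgam and Lyn cluster it stood at 339 CPM, from 6 UMIs of which 4 lay in 1 nucleus, and 237 CPM (0.70, 0.311 to 1.95). Inside the Blnk and Slc2a5 cluster it stood at 58.7 CPM and, from 2 UMIs, 74.9 CPM (1.28, 0.140 to 5.64). Neither within-cluster interval left out 1. In fibroblast-like nuclei the values were 30.9 and 73.4 CPM (2.38, 1.33 to 4.12), and 30.7 and 51.5 CPM (1.68, 0.747 to 3.44) without the Col1a1 and Lum cluster. Endothelial-like nuclei had 11 and 13 UMIs, or 17.5 and 88.5 CPM (5.07, 2.09 to 12.5). Of the 13 HGF-library UMIs 6 lay in 1 nucleus, and with equal weight per nucleus the ratio was 1.77.

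Met, the receptor, had 133 UMIs (22.3 CPM) and 137 (94.4 CPM), a ratio of 4.23 (3.31 to 5.41) and of 2.14 at the untreated makeup. In myeloid-like nuclei it had 5 and 75 UMIs, or 20.9 and 169 CPM (8.09, 3.32 to 25.6). All 75 lay in the Itgam and Lyn cluster, where the level was 170 CPM (3 UMIs) untreated and 180 CPM with the HGF scaffold (1.06, 0.349 to 5.26). Endothelial-like nuclei, which held the most untreated Met UMIs of any named class, stood at 49.2 and 95.3 CPM (1.94, 0.952 to 3.75). Fibroblast-like nuclei stood at 18.8 and 34.97 CPM (1.86, 0.795 to 4.001), and the unnamed cluster led by Slc26a7 and Foxp2 at 61.9 and 176 CPM (2.84, 1.39 to 5.72).

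Of the 27 genes listed for HGF and MET signalling, 25 were in the files and 23 were measured. Of these 6 were 2-fold higher and 1 was lower, beside the 9.26% and 11.6% of all genes, and the median log2 ratio was 0.36, beside 0.06 for all genes. The higher members beside Hgf and Met were the plasminogen activator Plau, which can cut the HGF precursor (4.37 and 30.3 CPM, 6.94, 4.18 to 11.7), its receptor Plaur (54.4 and 256 CPM, 4.71, 4.05 to 5.49), the hyaluronan receptor and MET partner Cd44 (110 and 451 CPM, 4.10, 3.68 to 4.58) and the adaptor Grb2 (2.02). The lower member was Spint1, an inhibitor of HGF-activating proteases, with 30 and 2 UMIs (0.274). Adaptors and signalling enzymes lay nearer to 1, with Gab1 at 1.07, Sos1 at 1.14, Pik3r1 at 0.953 and Ptpn11 at 0.842. Plau, Plaur and Cd44 are also genes of activated macrophages, and the summed CPM of 25 myeloid markers over all nuclei was 1871 and 6603, a ratio of 3.53. The part of that makeup in the list was not tested beyond the values at the untreated makeup, which were 4.68 for Plau, 2.80 for Plaur and 2.73 for Cd44.

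**Figure D3:**
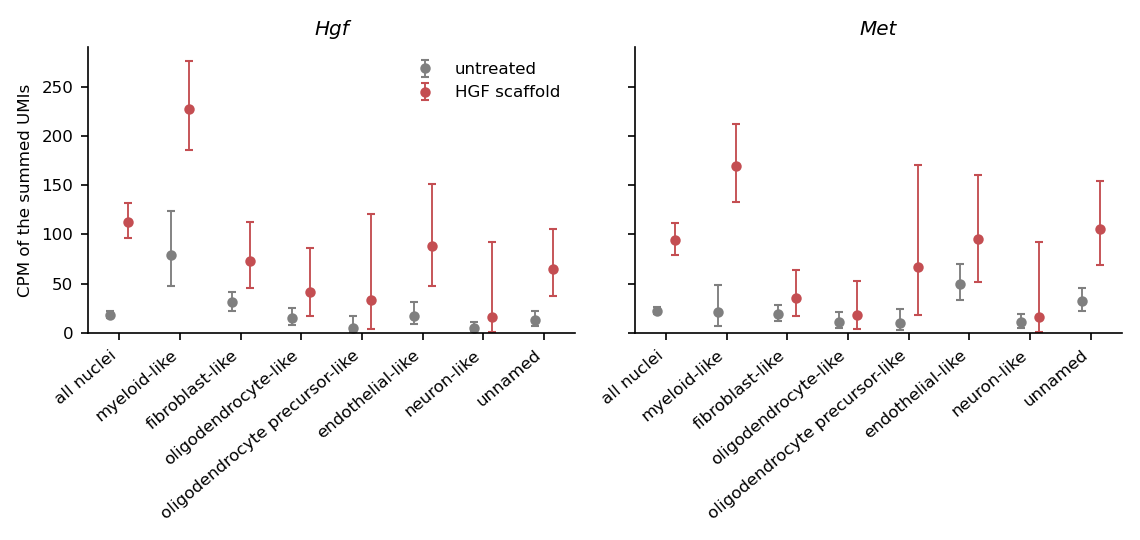
Points give the CPM of Hgf and Met, with exact Poisson 95% intervals, in all nuclei and in classes of both libraries. Hgf stands at 79.4 and 228 CPM in the myeloid class and Met at 20.9 and 169 CPM, with wide intervals where few UMIs were counted.

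In myeloid-like nuclei 5872 genes were measured, of which 11.6% were 2-fold higher and 13.4% lower. With TMM scaling, which sets library size by the genes that differ least, they were 13.6% and 11.8%, so which direction held more genes turned. Of 25 genes of the pro-inflammatory list 11 were measured, and 7 of those were higher and 1 lower, with a median log2 ratio of 1.97 beside 0.02 for all genes. Irg1, Nfkbia and Il1b had 0, 5 and 4 untreated UMIs and reached the minimum of 20 only through the HGF library. The counts and the median of the list are not free of that selection. Nfkbia had 5 and 278 UMIs, or 20.9 and 627 CPM (29.995, 12.7 to 93.1). Irg1 had 0 and 96 UMIs, at least 17.3-fold higher against a floor of 3 UMIs. The cytokine Il1b stood at 16.7 and 133 CPM (7.96, 2.95 to 30.2), and the other higher members were Ccl3 (7.42), the pattern receptor genes Cd14 (5.66) and Tlr2 (3.91) and the NADPH oxidase subunit Cybb (3.13). Tnf, Il6 and Ccl4 had at most 3 UMIs in either library and could not be read at this depth. The lower member was Cd86, a T cell costimulator, with 21 and 10 UMIs (0.257, 0.108 to 0.570). Within the Blnk and Slc2a5 cluster 4 members were measured, 0 higher and 1 lower, beside 8.19% and 14.2% of its 3124 measured genes. Their median relative to all genes of that cluster was -0.12 on the log2 scale. Il1b had 4 and 0 UMIs there, and 0 and 59 UMIs in the Itgam and Lyn cluster. Nfkbia had 4 and 13 UMIs in the Blnk and Slc2a5 cluster, short of the minimum of 20, so it was not among the 4 measured. Of the 13 HGF UMIs 9 lay in 1 nucleus. It stood there at 18.1 and 487 CPM (27.0, 8.34 to 114). Within the Itgam and Lyn cluster it stood at 56.5 CPM, from 1 UMI, and 636 CPM (11.2, 2.002 to 446).

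Genes of phagocytosis and lipid handling were measured in 28 of 30 cases, with a median of 0.62. Of these 10 were higher and 2 lower, beside 11.6% and 13.4% of all genes. The lysosomal protease Ctsl stood at 37.6 and 494 CPM (13.1, 6.79 to 29.1), the scavenger receptor Msr1 at 109 and 890 CPM (8.20, 5.51 to 12.7) and osteopontin, Spp1, at 267 and 1411 CPM (5.28, 4.08 to 6.94). Fabp4 (7.91), Cd36 (6.91), Cd68 (4.99) and the lipid droplet gene Plin2 (3.78) were also higher. Other lysosomal genes lay nearer to 1, with Ctsd at 1.18, Lamp1 at 1.03 and Lgmn at 0.943. The growth factor Igf1 (0.246) and the receptor Axl (0.314), which binds dying cells, were the lower members. Within the Itgam and Lyn cluster Spp1 stood at 2769 CPM in 14 untreated nuclei and 1475 CPM in 319 HGF nuclei (0.533, 0.398 to 0.728), but 41 of the 49 untreated UMIs lay in 1 nucleus. Without that nucleus its ratio there was 2.42 (1.22 to 5.63), and 14.4 (9.51 to 22.9) in the class. Msr1 stood at 735 and 933 CPM in that cluster (1.27, 0.734 to 2.41). In the Blnk and Slc2a5 cluster Spp1 stood at 67.7 and 412 CPM (6.09, 2.53 to 14.2) and Msr1 at 58.7 and 225 CPM (3.83, 1.19 to 10.8).

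Of the alternatively activated list 9 of 18 genes were measured, with 5 higher and 0 lower, beside 11.6% and 13.4% of all genes, and a median of 1.52. Arg1, which consumes arginine, stood at 20.9 and 257 CPM (12.3, 5.12 to 38.6), the folate receptor Folr2 at 41.8 and 187 CPM (4.48, 2.32 to 9.68), and the mannose receptor Mrc1 at 192 and 606 CPM (3.15, 2.30 to 4.41). Tgm2 (4.59) and the interleukin-4 receptor Il4r (2.88) completed the 5. Arg1 and Folr2 had 5 and 10 untreated UMIs and reached the minimum of 20 only through the HGF library. The count of higher members and the median of this list are not free of that selection. With at least 1 UMI in each library the median relative to all genes was 0.53 instead of 1.51. Within the Itgam and Lyn cluster Arg1 stood at 170 CPM, from 3 UMIs, and 273 CPM (1.61, 0.538 to 7.94). Within the Blnk and Slc2a5 cluster 2 members were measured, with a median relative to all genes of -1.05. Of these 0 were higher and 1 lower, beside 8.19% and 14.2% of all genes of that cluster. Mrc1 stood there at 176 and 187 CPM (1.06, 0.327 to 2.70). With both libraries clustered without the scaffold library the class median of the list, relative to all genes, was 0.067.

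Homeostatic genes of microglia, the resident macrophages of the cord, were lower in 4 of the 8 measured cases. Of 17 listed, 1 was higher, and the median was -1.03. Of all genes 11.6% were higher and 13.4% lower. The microglial transcription factor Sall1 stood at 180 and 22.5 CPM (0.125, 0.0562 to 0.254), Slc2a5 at 209 and 40.6 CPM (0.194, 0.107 to 0.339), the fractalkine receptor Cx3cr1 had 30 and 21 UMIs (0.378) and Bin1 had 59 and 46 (0.421). Siglec5 was higher, at 20.9 and 234 CPM (11.2, 4.66 to 35.3). Csf1r, the receptor that macrophages and microglia share, lay at 1.17. Within the Blnk and Slc2a5 cluster Slc2a5 stood at 226 and 262 CPM (1.16, 0.445 to 2.58) and Sall1 had 43 and 3 UMIs (0.579, 0.115 to 1.81), so the interval of each included 1. There 7 members of the list were measured, with a median relative to all genes of 0.22. Of these 0 were higher and 1 lower, beside 8.19% and 14.2% of all genes of that cluster.

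Of 14 genes of antigen presentation on MHC class II, 11 were measured, 7 of them higher and 1, Cd86, lower, beside 11.6% and 13.4% of all genes, with a median of 1.58. The invariant chain Cd74 stood at 37.6 and 259 CPM (6.89, 3.51 to 15.5) and Ciita, the activator of the class II genes, at 16.7 and 133 CPM (7.96, 2.95 to 30.2). Cd74 and Ciita had 9 and 4 untreated UMIs and reached the minimum of 20 only through the HGF library. The count of higher members and the median of this list are not free of that selection. RT1-DMa (5.13), Cd80 (3.42), RT1-Da (3.33), RT1-Db1 (2.99) and RT1-Ba (2.34) were higher too. The RT1 genes are close copies of one another, so reads may have been shared among them. Within the Blnk and Slc2a5 cluster 2 members were measured, with a median relative to all genes of -0.083. Of these 0 were higher and 0 lower, beside 8.19% and 14.2% of all genes of that cluster. Cd74 had 8 and 1 UMIs there (1.04, 0.0234 to 7.74), and Cd86 had 20 and 3 (1.25, 0.237 to 4.20). In the Itgam and Lyn cluster Cd74 had 1 and 114 UMIs, or 56.5 and 273 CPM (4.84, 0.851 to 193), and Ciita 4 and 58, or 226 and 139 CPM (0.615, 0.228 to 2.33). Each of these within-cluster intervals includes 1.

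By the nearer bound of the interval, the genes of the class farthest above 1 also included Pde4d, a phosphodiesterase that breaks down cyclic AMP, and the kinase Dapk1. Pde4d stood at 1107 and 11177 CPM (10.1, 8.92 to 11.5), and within the Itgam and Lyn cluster at 5368 and 11819 CPM (2.20, 1.797 to 2.73). Dapk1 stood at 142 and 1610 CPM (11.3, 8.03 to 16.5), and within that cluster at 904 and 1691 CPM (1.87, 1.14 to 3.29). Within the Blnk and Slc2a5 cluster the ratios were 1.51 (0.998 to 2.23) for Pde4d and 4.15 (1.64 to 9.73) for Dapk1. Among genes with their highest level in the myeloid class, chosen after their values were seen, the serotonin receptor Htr7 stood at 37.6 and 491 CPM (13.1, 6.76 to 29.0), Xdh, which makes urate, at 71.0 and 595 CPM (8.38, 5.13 to 14.6) and the transferrin receptor Tfrc at 121 and 757 CPM (6.25, 4.27 to 9.48). Within the Itgam and Lyn cluster Htr7 had 0 and 217 UMIs, Xdh stood at 1.38 (0.693 to 3.24) and Tfrc at 1.08 (0.621 to 2.05). The lowest genes were Xirp2 (153 and 1 UMIs), Ankrd1 (64 and 0), Myh1 (64 and 0) and Tp63 (130 and 3). Their ratios were 0.00353 for Xirp2, 0.0124 for Tp63 and at most 0.0253 for Ankrd1 and Myh1. Of their untreated UMIs 98.7%, 100%, 96.9% and 99.2%, in that order, lay in the 6 muscle-marker nuclei, and without these nuclei each gene had at most 2 UMIs on either side.

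Transcripts of myeloid cells were higher in other classes as well. The summed CPM of 25 myeloid markers was 1722 and 5476 in fibroblast-like nuclei (ratio 3.18), 1665 and 4610 in endothelial-like (2.77), 2024 and 3661 in oligodendrocyte-like (1.81), 1915 and 3187 in precursor-like (1.66), and 1016 and 1093 in neuron-like nuclei (1.08). In myeloid-like nuclei it was 8567 and 11437 (1.34). At most 1 of the 25 markers was at 0 in an untreated class, and between 1 and 8 were at 0 in the HGF classes. The sum over 11 neutrophil markers was 3.24 to 31.3 times higher in each of the 6 classes compared and 13.8 times over all nuclei, at 30.6 and 420 CPM. The 31.3 of the neuron-like class rested on 1 HGF nucleus with 39 of these UMIs, and without it the ratio was 3.65 (1.09 to 9.77). Up to 7 of the 11 were at 0 in a class. The part of these transcripts in the results of the following classes was not tested.

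**Figure D4:**
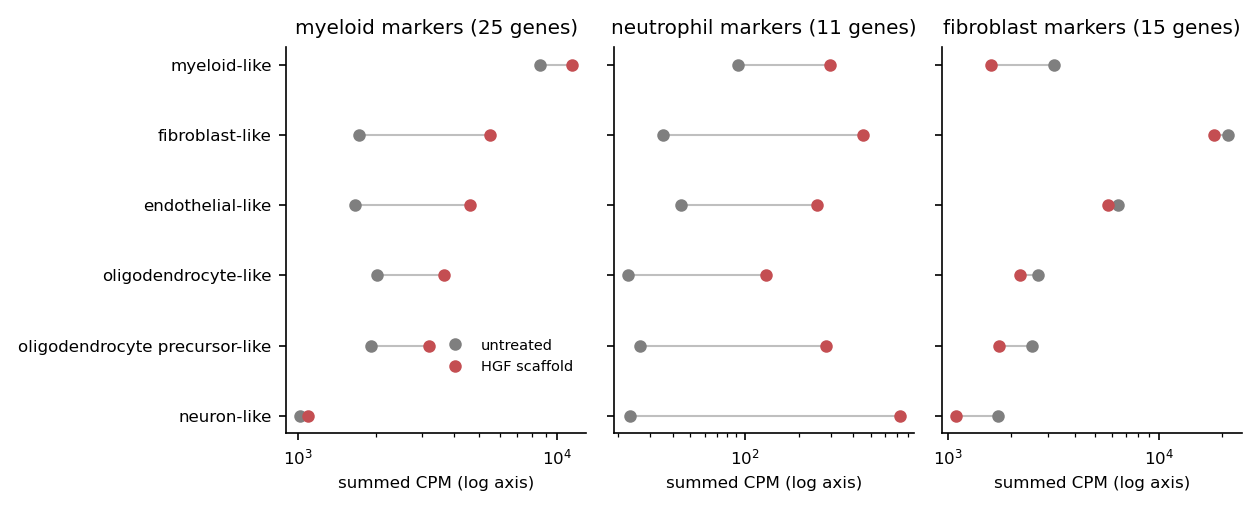
Points give the summed CPM (log axis) of marker lists in each class for the untreated and the HGF scaffold library. Myeloid markers stand at 1722 and 5476 CPM in fibroblast-like nuclei and at 8567 and 11437 CPM in myeloid-like nuclei.

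Fibroblast-like nuclei had 8719 measured genes, 8.07% of them 2-fold higher and 10.3% lower. All 24 genes of the fibrotic matrix list found in the files were measured, and 2 were higher and 3 lower, shares close to those of all genes, with a median of -0.22 beside 0.03. Summed over the class, the chief collagens of scar lay near 1, with Col1a1 at a ratio of 1.18, Col1a2 at 0.887 and Col3a1 at 0.831. Postn, a matrix protein of wound fibroblasts, lay at 1.0. The mix of clusters differed, with 271 untreated and 26 HGF nuclei in the cluster led by Ptgds and Igf2. The cluster led by Col1a1 and Lum held 86 and 74. Cluster mix and library cannot be told apart in these class ratios. The higher members were the actin gene of contractile myofibroblasts Acta2 at 25.6 and 133 CPM (5.19, 3.18 to 8.49) and the collagen crosslinker Lox, with 19 and 11 UMIs (2.69). The lower members were Col8a1 at 1875 and 871 CPM (0.464, 0.406 to 0.529), Col14a1 at 268 and 133 CPM (0.495, 0.345 to 0.693) and Ctgf, a target of TGF-beta, with 346 and 34 UMIs (0.456). Tenascin C, Tnc, lay just short of 2-fold at 787 and 413 CPM (0.524, 0.430 to 0.635), and fibronectin, Fn1, at 0.60.

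The clusters of the class differed. In the cluster led by Tnc, Col8a1 and Itga11, with 225 and 65 nuclei, Col1a1 stood at 4873 and 4515 CPM (0.927, 0.846 to 1.01), Col8a1 at 3651 and 1642 CPM (0.450, 0.389 to 0.518), Tnc at 1740 and 851 CPM (0.489, 0.399 to 0.595) and Acta2 at 38.5 and 190 CPM (4.94, 2.65 to 9.28). In the cluster led by Col1a1, Lum, Lyz2 and Mmp13, with 86 and 74 nuclei, 14 of 20 measured members of the list were lower and 0 higher, beside 12.3% and 15.2% of its 2386 measured genes, with a median of -1.61 beside 0.07 for all genes. Col1a1 there stood at 22478 and 8077 CPM (0.359, 0.330 to 0.391), and Tnc had 39 and 4 UMIs (0.097, 0.0252 to 0.269). In that cluster the 15 fibroblast markers summed to 54400 and 17841 CPM (0.328), and the 25 myeloid markers to 3071 and 10341 CPM (3.37). Without it Col1a1 stood at 1.21, Col8a1 at 0.601, Tnc at 0.724 and Acta2 at 5.39.

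The named genes farthest above 1 in fibroblast-like nuclei were genes of myeloid cells. Irg1 had 0 and 22 UMIs, at least 34.0-fold higher against a floor of 3 UMIs. Cxcl2 had 1 and 29 UMIs (135, 22.3 to 5495), S100a9 8 and 48 (27.8, 13.1 to 68.1) and Msr1 27 and 109 (18.7, 12.2 to 29.7). Of the 29 Cxcl2 UMIs 17 lay in 1 nucleus. Of the pro-inflammatory list, 8 of 11 measured were higher here and 0 lower, of the phagocytic list 18 of 28 and of the class II list 8 of 9, again beside 8.07% of all genes. Without the Col1a1 and Lum cluster Msr1 stood at 16.1 and 206 CPM (12.8, 7.29 to 23.1) and Spp1 at 106 and 623 CPM (5.90, 4.57 to 7.61). The lowest were Col2a1 (0.0357), of whose 130 untreated UMIs 118 lay in 1 nucleus, Comp (0.0559), the adhesion gene Tenm2 at 591 and 97.9 CPM (0.166, 0.109 to 0.241) and Galnt13, with 70 and 0 UMIs (at most 0.199).

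Genes with their highest level in the fibroblast class were chosen after their values were seen. By the nearer bound Spp1 (9.30) and Lyz2 (9.62), also genes of macrophages, came first, with Ctsl (3.80) and RT1-Da (4.55) further down. Mmp3, the matrix protease stromelysin, had 17 and 44 UMIs (12, 6.72 to 22.4), but 2 and 9 without the Col1a1 and Lum cluster. Angptl4, an inhibitor of lipoprotein lipase induced by low oxygen, had 12 and 20 (7.73, 3.6 to 17.3), and 10 and 12 without that cluster. The growth factor Igf2 stood at 390 and 83.9 CPM (0.215, 0.137 to 0.324), its binding protein Igfbp2 at 576 and 171 CPM (0.298, 0.218 to 0.397) and Fndc1 at 367 and 80.4 CPM (0.219, 0.138 to 0.333). Igf2 and Igfbp2 lead a cluster with Ptgds that held 271 untreated and 26 HGF nuclei, and within it Igf2 stood at 993 and 427 CPM (0.430, 0.204 to 0.801).

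Proteases that break down matrix, and their inhibitors, are produced by fibroblasts and leukocytes. Of 22 listed, 21 were measured over all nuclei, 10 higher and 2 lower beside 9.26% and 11.6% of all genes, with a median of 0.53. The gelatinase Mmp9 of neutrophils and macrophages stood at 6.22 and 49.6 CPM (7.99, 5.30 to 12.2) and the collagenase Mmp13 at 27.2 and 156 CPM (5.72, 4.66 to 7.05). Of the 226 HGF-library Mmp13 UMIs 82 lay in 1 nucleus, and with equal weight per nucleus the Mmp13 ratio was 3.10. Mmp3 lay at 6.06, the protease Ctss at 3.59, Mmp12 at 2.76 and Ctsk at 2.31. Mmp16 (0.492) and the plasminogen activator Plat (0.481) were lower, and the protease inhibitors Timp2 and Timp3 lay at 1.27 and 0.599.

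Chondroitin sulfate proteoglycans, matrix molecules that restrain axon growth, had 18 of 21 genes measured over all nuclei, with 2 higher and 3 lower, shares near the 9.26% and 11.6% of all genes, and a median of -0.36. Aggrecan, Acan, stood at 43.2 and 6.89 CPM (0.160, 0.0757 to 0.298), the link protein Hapln1 had 62 and 0 UMIs (at most 0.199 against the floor), and Tnr lay at 0.483. The core proteins Bcan (0.989), Ncan (0.843) and Vcan (1.03) lay near 1. The sulfotransferase Chst12 had 18 and 19 UMIs (4.33, 2.15 to 8.75), and Dse lay at 2.11. Acan and Hapln1 are also cartilage genes, as are Col2a1 and Comp above.

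Oligodendrocyte-like nuclei, which make the myelin of the cord, had 6406 measured genes, with 7.7% higher and 7.12% lower. Under TMM scaling, which sets library size by the genes that differ least, the shares were 4.62% and 10.5%, and with equal weight per nucleus 8.21% and 10.5%, so which direction held more genes turned. None of the 22 measured myelin genes differed 2-fold (0 higher and 0 lower), and their median was -0.18 beside 0.09 for all genes. Mbp, the major cytoplasmic myelin protein, had 4791 and 798 UMIs (0.886), Mobp 926 and 160 (0.919), and Mag 706 and 115 (0.866). The members farthest from 1 were Nfasc, which anchors the paranodal junction, at 1111 and 1576 CPM (1.42, 1.23 to 1.63), the surface glycoprotein Mog at 678 and 473 CPM (0.698, 0.545 to 0.883) and the lipid hydroxylase Fa2h at 799 and 599 CPM (0.75, 0.602 to 0.926).

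Sterol synthesis, which supplies myelin cholesterol, had 12 of 18 genes measured, with a median of -0.0027. Of these 0 were higher and 1 lower, beside 7.7% and 7.12% of all genes of the class. Counts were low. Hmgcs1 had 38 and 4 UMIs (0.560, 0.145 to 1.55) and Fdps 16 and 5 (1.66, 0.476 to 4.75), both with intervals that include 1.

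Of 20 stress and immune genes listed for the class 11 were measured, with 5 higher, 1 lower and a median of 0.52. Those higher were the class I genes RT1-A1 at 27.0 and 138 CPM (5.10, 2.75 to 9.43) and RT1-A2 at 29.3 and 132 CPM (4.499, 2.43 to 8.26), their partner B2m with 100 and 54 UMIs (2.87), Cd63 (3.09) and Cd74 at 5.64 and 89.9 CPM (16.0, 5.51 to 56.1). The stress factor Ddit3, with 22 and 2 UMIs (0.483), was lower. The highest named genes were Ccl3 with 2 and 23 UMIs (61.1, 15.1 to 535), the macrophage lysozyme Lyz2 at 38.3 and 497 CPM (13.0, 8.61 to 19.96) and Nfkbia at 27.0 and 312 CPM (11.5, 6.97 to 19.5). Of the 23 Ccl3 UMIs 11 lay in 1 nucleus. The lowest were the glutamate receptor Grm5 (58 and 0 UMIs, at most 0.275), Eda (173 and 5, 0.154), Lef1 (77 and 1, 0.0690) and Slc35f1 (133 and 4, 0.160), and 33 of the 77 Lef1 UMIs lay in 1 nucleus. Among genes with their highest level in this class, 31 of 600 were 2-fold higher and 9 lower, beside the 7.7% and 7.12% of all genes of the class. They included the splicing factor Srsf5 at 299 and 605 CPM (2.03, 1.60 to 2.56) and the transcription factor Pbx3 at 3562 and 1744 CPM (0.489, 0.433 to 0.552).

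Oligodendrocyte precursor-like nuclei numbered 126 and 40. Their leading genes include Tnr and Sox6 of precursors together with Bcas1 and Enpp6 of cells that are forming myelin. Of 4266 measured genes 8.6% were higher and 13.7% lower, or 4.13% and 20.6% under TMM scaling. Of 16 genes of commitment to the oligodendrocyte fate 13 were measured, 1 higher and 1 lower, with a median of 0.31 beside -0.04 for all genes. The Wnt effector Tcf7l2, expressed as precursors differentiate, stood at 267 and 584 CPM (2.19, 1.45 to 3.22), Rras2 at 761 and 1352 CPM (1.78, 1.37 to 2.27) and Bcas1 at 7180 and 9044 CPM (1.26, 1.15 to 1.38). Enpp6 (1.23) and Myrf (1.24), the regulator of myelin genes, lay near them, and Sox10 had 50 and 2 UMIs (0.280).

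The highest named genes of the precursor-like class were known from macrophages. Smpdl3a had 4 and 16 UMIs (28.0, 9.03 to 115), the nucleoside transporter Slc28a2 8 and 21 (18.4, 7.82 to 48.0), Pla2g7 7 and 16 (16.0, 6.23 to 46.0) and Spp1 24 and 43 (12.5, 7.44 to 21.6), with 25 of the 43 in 1 HGF nucleus. Of the 21 Slc28a2 UMIs 11 lay in 1 HGF nucleus. The lowest were Pdzrn3 at 541 and 33.4 CPM (0.0616, 0.00742 to 0.225), the exchanger Slc24a2 at 1259 and 184 CPM (0.146, 0.0723 to 0.263), Clmn with 150 and 2 UMIs (0.0933, 0.0112 to 0.343) and St6galnac3 at 1836 and 451 CPM (0.245, 0.161 to 0.360). Slc24a2, Clmn and St6galnac3 also led the main oligodendrocyte-like cluster. The glutamate receptor subunit Gria2 stood at 284 and 718 CPM (2.53, 1.74 to 3.61).

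Endothelial-like nuclei numbered 175 and 53, and of 6160 genes 8.52% were higher and 12.3% lower, or 6.31% and 14.4% under TMM scaling. Genes of the blood-spinal cord barrier and its transporters had 15 of 19 measured, with 1 higher, 2 lower and a median of 0.02 beside 0.01. The tight junction gene Cldn5 stood at 93.7 and 136 CPM (1.45, 0.829 to 2.45), Tjp1 lay at 1.22, the glucose transporter Slc2a1 at 1.06 and the junction molecule Pecam1 at 1.02. The transferrin receptor Tfrc was higher at 132 and 313 CPM (2.38, 1.62 to 3.45), although with each nucleus given equal weight its ratio was 0.875. Lef1, a Wnt effector of barrier endothelium, was lower at 575 and 279 CPM (0.486, 0.343 to 0.672), and so was the efflux pump Abcg2, with 52 and 5 UMIs (0.412). Of 17 activation genes 9 were measured, with 0 higher, 0 lower and a median of -0.07. The adhesion molecules for leukocytes Selp (1.81, 0.684 to 4.32), Icam1 (1.43, 0.464 to 3.76) and Sele (1.36, 0.492 to 3.31) had intervals that include 1.

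The genes farthest from 1 in the endothelial-like class were on neither the barrier nor the activation list. Mmp13 stood at 34.9 and 654 CPM (18.7, 11.7 to 31.2), with 82 of its 96 HGF UMIs in 1 nucleus. Ncf1, an NADPH oxidase subunit of phagocytes, had 24 and 97 UMIs (17.3, 10.99 to 28.3), Msr1 5 and 30 (25.7, 9.88 to 84.9) and Adgre1 17 and 57 (14.4, 8.24 to 26.4). Of the 57 Adgre1 UMIs 28 lay in 1 nucleus. The lowest, Slc6a20 (117 and 0 UMIs, at most 0.110) and Trpm3 at 2362 and 409 CPM (0.173, 0.131 to 0.224), led a fibroblast-like cluster. Ntn1 had 180 and 3 UMIs (0.0715, 0.0146 to 0.212) and Ppp2r2b 383 and 15 (0.168, 0.0931 to 0.280). Over all nuclei the angiogenesis list had 21 of 22 genes measured, 2 higher and 3 lower, shares near the 9.26% and 11.6% of all genes, with a median of -0.18. The hypoxia factor Hif1a stood at 231 and 525 CPM (2.27, 2.08 to 2.49) and Vegfa at 38.6 and 78.6 CPM (2.03, 1.61 to 2.56), while the VEGF receptors Flt1 (1.02) and Kdr (1.45) lay closer to 1. Fgf2 had 118 and 8 UMIs (0.278, 0.117 to 0.566), Fgf1 lay at 0.456 and Pdgfb at 0.467. At the untreated makeup Hif1a stood at 1.65, Vegfa at 1.94 and Fgf2 at 0.560, each short of 2-fold.

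Neuron-like nuclei were few in the HGF library, 30 with 60410 UMIs against 137 with 1031192. Of 6248 measured genes 16.6% were higher and 9.33% lower, and 457 had no HGF UMI. Under TMM scaling the shares were 6.15% and 18.1%, and with equal weight per nucleus 16.4% and 20.6%, so which direction held more genes turned. Of 7 measured mitochondrially encoded genes 5 were higher in this class and 0 lower, with a median of 2.29 beside 0.19 for all its genes, and their part in its ratios was not tested. Over all nuclei the neuron and synapse list had 21 of 22 genes measured, with a median of -1.32. Of these 0 were higher and 16 lower, beside 9.26% and 11.6% of all genes over all nuclei. The synaptic vesicle protein Syt1 stood at 460 and 106 CPM (0.231, 0.195 to 0.271), Gria1 at 176 and 43.4 CPM (0.246, 0.188 to 0.318) and Grin2a at 211 and 60.7 CPM (0.288, 0.229 to 0.358). Within neuron-like nuclei 18 were measured, 1 higher and 0 lower, with a median of 0.11 beside 0.19 for all genes of the class. The difference over all nuclei stood beside fewer neuron-like nuclei and fewer UMIs in them, and at the untreated makeup Syt1 stood at 0.690, Gria1 at 0.775 and Grin2a at 0.681.

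Single genes still differed within the neuron-like class. Kcnip1 stood at 1343 and 281 CPM (0.210, 0.122 to 0.337), Tmem132d at 578 and 99.3 CPM (0.172, 0.0628 to 0.376) and Pbx3, a transcription factor of spinal interneurons, at 821 and 182 CPM (0.222, 0.110 to 0.399). Cntnap4 had 282 and 1 UMIs (0.0605, 0.00153 to 0.340). The neuronal noncoding RNA Snhg11 stood at 2276 and 6092 CPM (2.68, 2.39 to 2.99). S100a9 had 3 and 34 UMIs (193, 60.8 to 984), but 31 of the 34 lay in 1 nucleus. Lilrb4 (13.1, 5.83 to 28.5), the lipase Aoah (7.49, 4.05 to 13.3) and Slc7a2 (7.76, 3.92 to 14.7), all from 13 to 18 HGF UMIs, were the other named genes above 1. For Slc7a2, 9 of 15 HGF UMIs lay in 1 nucleus.

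Neurotrophic factors and their receptors had 21 of 24 genes measured over all nuclei, with a median of -1.26. Of these 1 was higher and 15 were lower, beside 9.26% and 11.6% of all genes. Neuregulin 1, Nrg1, stood at 1174 and 245 CPM (0.209, 0.187 to 0.233), Igf2 at 121 and 28.3 CPM (0.234, 0.166 to 0.321) and the BDNF receptor Ntrk2 at 283 and 84.8 CPM (0.300, 0.248 to 0.360). The ligands Bdnf (27 and 2 UMIs), Gdnf (29 and 2) and Ntf3 (30 and 1) were low in number in both libraries. Vegfa was the higher member. At the untreated makeup Nrg1 stood at 0.655 and Ntrk2 at 0.780, and Igf2 at 0.420. Axon guidance and growth inhibition had 24 of 26 measured, 1 higher and 9 lower beside the same shares, with a median of -0.79. The netrin receptor Dcc stood at 527 and 163 CPM (0.309, 0.269 to 0.353), the semaphorin Sema3d at 221 and 63.4 CPM (0.287, 0.229 to 0.354) and the Slit receptor Robo2 at 445 and 150 CPM (0.336, 0.291 to 0.386). At the untreated makeup Dcc and Robo2 were at 0.792 and 0.767, nearer to 1 than Sema3d at 0.427. Sema4d, which immune cells and oligodendrocytes express, was the higher member at 2.30, and the myelin inhibitor Rtn4 lay at 0.889.

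Astrocytes were too few in the HGF library, 21 nuclei, for ratios of their own. The reactive astrocyte list was read over all nuclei, where 17 of 18 were measured, 4 higher and 3 lower beside 9.26% and 11.6% of all genes, with a median of -0.11. The filament gene Gfap stood at 484 and 193 CPM (0.399, 0.352 to 0.451) and the glutamate transporter Slc1a2 lay at 0.363. Cd44 (4.10), Lcn2 with 22 and 23 UMIs (4.29, 2.29 to 8.07), C3 (2.84) and Lgals3 (2.07) were higher. These 4 genes are also expressed by leukocytes, and Gfap at the untreated makeup stood at 0.746.

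Cells short of oxygen raise glycolysis through HIF1A, and activated macrophages do so as well. Over all nuclei 23 of 25 were measured, with a median of 1.05 beside 0.06. Of these 13 were higher and 0 lower, beside 9.26% and 11.6% of all genes. The lactate exporter Slc16a3 stood at 3.86 and 44.1 CPM (11.4, 6.99 to 19.3), Pfkfb3, which speeds glycolysis, at 55.4 and 209 CPM (3.77, 3.21 to 4.42) and lactate dehydrogenase, Ldha, at 38.6 and 130 CPM (3.37, 2.77 to 4.11). Pkm (2.20), Pgk1 (2.17), Tpi1 (2.28), Aldoa (2.09) and the glucose transporter Slc2a1 (2.36) were higher as well. Within classes 13 of 20 measured were higher and 0 lower in myeloid-like nuclei, with a median of 1.22. In oligodendrocyte-like nuclei they were 9 and 1 of 17 (1.03), in fibroblast-like 6 and 0 of 22 (0.75) and in endothelial-like 5 and 1 of 16 (0.45). Of all genes, 11.6% were higher and 13.4% lower in myeloid-like nuclei, and 7.7% and 7.12% in oligodendrocyte-like nuclei. These shares were 8.07% and 10.3% in fibroblast-like and 8.52% and 12.3% in endothelial-like nuclei. At the untreated makeup Slc16a3 stood at 7.59, Pfkfb3 at 2.14 and Ldha at 2.42.

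Immediate early and heat shock genes had 23 of 26 measured over all nuclei, 5 higher and 0 lower beside 9.26% and 11.6% of all genes, with a median of 0.66. Junb stood at 33.8 and 154 CPM (4.55, 3.75 to 5.54), Klf6 at 77.3 and 212 CPM (2.74, 2.36 to 3.17) and Ier3 at 32.6 and 75.8 CPM (2.33, 1.82 to 2.96). Fos (1.86) and Jun (1.12) did not reach 2-fold. Junb stood at 3.29, Klf6 at 2.02 and Ier3 at 1.83 at the untreated makeup. Cell cycle genes had 23 of 28 measured, 12 higher and 0 lower, again over all nuclei, with a median of 1.01. Ect2, needed for cytokinesis, stood at 11.3 and 46.2 CPM (4.10, 2.88 to 5.85), the topoisomerase Top2a at 12.3 and 42.0 CPM (3.43, 2.40 to 4.88) and Cenpf at 12.8 and 39.98 CPM (3.13, 2.19 to 4.47), but Mki67 lay at 1.34. Ect2 stood at 2.20, Top2a at 3.08 and Cenpf at 2.32 at that makeup. In myeloid-like nuclei 4 of 7 measured were higher, beside 11.6% of all genes of that class, and in fibroblast-like nuclei 7 of 13, beside 8.07%. Of 8 measured in endothelial-like nuclei 0 differed 2-fold, beside 8.52% of all genes higher and 12.3% lower there.

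Interferon response genes had 19 of 22 measured over all nuclei, 7 higher and 0 lower beside 9.26% and 11.6% of all genes, with a median of 0.91. Ifit3 had 12 and 46 UMIs (15.7, 8.20 to 32.6), Oasl 36 and 38 (4.33, 2.67 to 7.03) and the transcription factor Irf1 83 and 69 (3.41, 2.44 to 4.75). Their ratios were 10.1, 3.88 and 2.79 at the untreated makeup. Within myeloid-like nuclei 0 of 7 measured differed 2-fold, beside 11.6% of all genes higher and 13.4% lower in that class. T cell genes had 11 of 18 measured, 5 higher and 0 lower over all nuclei, with a median of 0.71. The costimulator Icos stood at 5.21 and 33.1 CPM (6.35, 3.96 to 10.3), Ctla4 had 10 and 14 UMIs (5.74, 2.37 to 14.5), and Cd4, which rat macrophages also express, stood at 23.5 and 57.2 CPM (2.43, 1.83 to 3.21) and at 1.06 at the untreated makeup. Icos and Ctla4 stood at 4.78 and 3.67 at that makeup. The T cell receptor subunits Cd3e and Cd3g had 8 and 5, and 11 and 1 UMIs, and 12 T or NK cell markers together stood at 145 and 186 CPM (1.29). No cluster took the T cell name.

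Mitochondrially encoded genes, read as a sign of RNA from outside the nucleus, made up 0.195% and 0.207% of UMIs. All 13 were measured, 0 higher and 2 lower beside 9.26% and 11.6% of all genes, with a median of 0.02. The lower were mt-Nd4l at 31.1 and 9.65 CPM (0.311, 0.167 to 0.534) and mt-Nd5 at 56.4 and 26.2 CPM (0.464, 0.323 to 0.650), and mt-Nd4 stood at 155 and 89.6 CPM (0.580, 0.479 to 0.697). In the 5 other classes compared at most 1 of these genes was higher, against 5 in the neuron-like class.

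**Figure D5:**
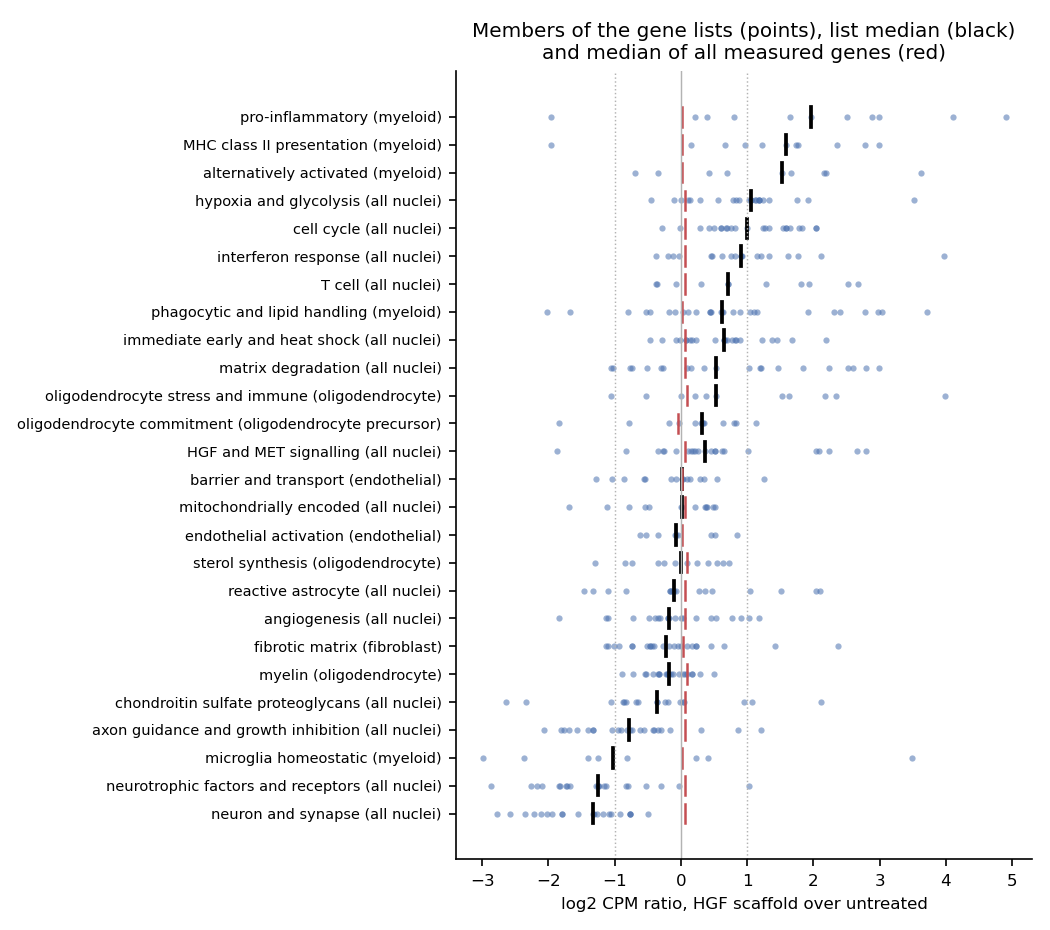
Each point is the log2 CPM ratio, HGF scaffold over untreated, of 1 measured member of a gene list in the class named with the list, with the list median in black and the median of all measured genes of that class in red. The pro-inflammatory median in the myeloid class stands at 1.97, the hypoxia and glycolysis median at 1.05, the myelin median at -0.18 and the neuron and synapse median at -1.32.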

How the data were processed

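The authors deposited raw UMI counts, whole numbers for every gene in every nucleus. The submitters' processing notes name Cell Ranger 6.0.1. Nuclei were isolated with a commercial kit and captured on the 10x Genomics platform, per the labels' protocols. Genome build and annotation are not given in the sources used here. The files list 17328 genes, and 3133 had no UMI in either library.

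No nucleus was removed. Counts of the 3 libraries were scaled to 10000 per nucleus, logged and clustered together without integration (2000 variable genes, 30 components, 15 neighbours, Leiden resolution 1) in scanpy 1.11.5, anndata 0.12.19, leidenalg 0.10.2, scikit-learn 1.9.0, numpy 2.4.6 and scipy 1.17.1 under Python 3.11.15, with figures from matplotlib 3.10.9. Each cluster took the class, out of 17 marker lists, with the most markers among its 100 leading genes, and stayed unnamed with under 3, a tie, or more of another class in its top 10. The pseudocount of 0.1 per 10000 and the minimum detection behind leading genes were set after seeing the data. UMIs were summed per library and class. Classes with at least 30 nuclei in both libraries were compared, with exact conditional Clopper-Pearson intervals of ratios, exact Poisson intervals of CPM and exact binomial intervals of shares, at 95% and for counting error only. A count of 0 was set to a floor of 3 UMIs per library and class, and a list median uses that bound. The untreated makeup weights 14 clusters that hold 97.7% of untreated UMIs. Each list was read in the class planned for it, or over all nuclei where that was planned. The ratio step was tested on simulated data.

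Named genes were, over all nuclei, the 8 higher and 8 lower, and per class the 4 and 4, whose interval bound nearest to 1 lay farthest from it, and the 3 such members of each of 26 lists, with Hgf and Met always. Results of some genes are not reported here. Other members are given by ratio, and genes with their highest level in a class and counts per nucleus were chosen after their values were seen. Members and lists were chosen with earlier results of these data known. Of 559 list entries 537 were in the files, matched by symbol or RefSeq synonym. Alternatives covered scaling (TMM of edgeR 4.0.16 in R 4.3.3), the UMI minimum, equal weight per nucleus, clustering, thinning to 500 UMIs for clustering, doublet and mixed nuclei, marker scores per nucleus and untreated makeup. Added after seeing the data were single clusters, and the 1 nucleus with the most UMIs left out for Spp1 and neutrophil markers. The fibroblast-like class without the Col1a1 and Lum cluster, and the myeloid-like class without muscle-marker nuclei, were also added then.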

Additional observations from a re-analysis of the deposited data

Results flagged for a closer look

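Some genes lay 2-fold higher in 1 class and 2-fold lower in another under the same comparison, with counting intervals on opposite sides of 1. With 1 library per group these differences between classes were not tested, and each is given as the log2 ratio in the first class minus that in the second. Against the myeloid class, where most nuclei of each library lay in different clusters, the differences were 3.22 for Bcl11b (fibroblast 15.8 and 45.5 CPM, myeloid 58.5 and 18.0), 3.18 for the guidance ligand Efna5 (fibroblast 686 and 1437, myeloid 87.8 and 20.3) and 2.79 for Mmp12 (fibroblast 35.4 and 94.4, myeloid 58.5 and 22.5). Skap1, a T cell adaptor, differed by 4.11 between fibroblast (30.1 and 115 CPM) and myeloid nuclei (163 and 36.1), and by 3.68 between neuron (40.7 and 116) and myeloid nuclei.

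Further differences from the myeloid class were 3.15 for Gria2 in precursors (284 and 718 CPM, myeloid 79.4 and 22.5), 5.17 for Mmp16 in neurons (314 and 844, myeloid 121 and 9.02), 3.31 for Snhg11 in neurons (2276 and 6092, myeloid 142 and 38.3), 4.21 for Scn7a in endothelial nuclei (17.5 and 74.9, myeloid 87.8 and 20.3) and 2.08 for Lum in endothelial nuclei (105 and 218, myeloid 91.9 and 45.1). Ctsk went the other way, at 46.0 and 160 CPM in myeloid and 159 and 61.3 in endothelial nuclei, a difference of 3.17. Against the fibroblast class the differences were 3.90 for Gria2 in precursors (fibroblast 61.8 and 10.5 CPM), 2.67 for Mmp16 in neurons (fibroblast 224 and 94.4) and 3.05 for Col14a1 in neurons (24.2 and 99.3, fibroblast 268 and 133). Pecam1 differed by 3.21 between fibroblast (46.7 and 171 CPM) and precursor nuclei (53 and 0 UMIs, set at the floor), and the netrin receptor Unc5b by 3.23 between neuron (29.1 and 116 CPM) and endothelial nuclei (176 and 74.9). Several rest on few HGF UMIs, such as 6 for Col14a1 and 7 each for Unc5b and Skap1 in neurons.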

How the results depend on the processing

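No paired analysis was possible because each group has 1 library, and for the same reason no library could be left out. The myeloid share ratio of 3.33 was 4.20 with both libraries clustered alone, 4.0 at resolution 2 and 4.82 by marker score. The fibroblast ratio of 0.617 was 0.406 and 0.488 with the first 2 of these, and 0.435 without the Col1a1 and Lum cluster. It was 0.407 without high mitochondrial nuclei (4 untreated) and Scrublet calls (1 HGF nucleus), a setting in which the remaining nuclei were clustered and named anew. The precursor ratio of 0.789 was 0.463 with both libraries alone. At the untreated makeup the lower genes over all nuclei made up 5.80% instead of 11.6%, and the medians relative to all genes were -0.69 for neurotrophic and -0.11 for neuron and synapse genes instead of -1.32 and -1.39. Relative to all genes, pro-inflammatory genes in the myeloid class stood at 1.95, at 2.82 with a minimum of 50 UMIs and at -0.12 within the Blnk and Slc2a5 cluster. Alternatively activated genes stood at 1.51, but at 0.53 with at least 1 UMI in each library, 0.067 with both libraries alone, 0.55 at resolution 2, 0.51 by marker score and -1.05 within that cluster. Homeostatic genes turned from -1.05 to 0.22 and class II genes from 1.56 to -0.083 within that cluster, and class II genes stood at 0.92 by marker score. Fibrotic matrix genes stood at -0.25, and at -1.69 within the Col1a1 and Lum cluster, and commitment genes at 0.35, and at 1.22 with both libraries alone. Beyond the nuclei that each setting holds, the causes were not tested.

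Over whole classes, log2 ratios that changed sign were those of Hmgcs1 (0.095 with both libraries alone, 0.014 by marker score), Tfrc in the endothelial class (-0.19 with equal weight per nucleus), Cldn5 (-0.14 at resolution 2, -0.16 by marker score) and Selp (-0.29 with both alone). Within the Itgam and Lyn cluster those of Spp1 (-0.91), Ciita (-0.70) and Hgf (-0.51) did, and within the Blnk and Slc2a5 cluster those of Slc2a5 (0.22) and Cd86 (0.32). Of 1156 alternatives over 141 named gene results 971 kept direction and size, 174 moved and 11 changed sign. TMM scaling moved the median of all genes by -0.12 over all nuclei and by 0.12 in the myeloid, -0.20 in the oligodendrocyte, -0.30 in the precursor, -0.13 in the endothelial and -0.41 in the neuron class. It changed the percentages higher and lower from 7.7 and 7.12 to 4.62 and 10.5 in the oligodendrocyte, from 8.6 and 13.7 to 4.13 and 20.6 in the precursor, from 8.52 and 12.3 to 6.31 and 14.4 in the endothelial and from 16.6 and 9.33 to 6.15 and 18.1 in the neuron class. In the myeloid class TMM scaling changed them from 11.6 and 13.4 to 13.6 and 11.8. With equal weight per nucleus the neuron class stood at 16.4 and 20.6. Depth limits the neuron and precursor classes most, since a gene at 20 UMIs in the untreated library may have none among the 60410 and 59930 HGF UMIs there.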
